A study of Mus musculus with 37 samples.

Results

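The in-frame starts described here lie 1 to 30 codons inside the longest open reading frame (ORF) of a gene and end at the same stop codon, so that both ORFs would give proteins differing only in a short N-terminal stretch, unless splicing also differs. They were taken from a single list of 22367 ORFs scored as translated in mouse bone marrow-derived dendritic cells. ORFs were grouped into 10418 families by the gene or transcript name they carry, chromosome and strand, and the ORF with the most codons in each was called the main ORF. An ORF was kept if it shared the main stop and in-frame codons with the main ORF, and if its first base was the first base of main codon 1 to 30, counting the main start as 0. This gave 1814 ORFs (8.11% of the list), which began at 1635 distinct start positions in 1454 families. They are called inner starts below. The difference between ORFs and positions comes from splice variants, which repeated 179 starts. Where several ORFs shared a start, the highest-scoring ORF stands for it in the counts of distinct starts.

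The cells came from C57BL/6J mice of 6 to 8 weeks, whose marrow was cultured into dendritic cells. Ribosome-protected RNA fragments were sequenced in 37 libraries: cells given lipopolysaccharide (LPS), a bacterial cell wall component, at 100 ng/mL, mock-treated cells and naive cells. Of these, 16 LPS, 8 mock and 2 naive libraries were made with cycloheximide (100 ug/mL for 1 min), a blocker of elongation, and 8 LPS libraries and 1 naive one without any inhibitor; the LPS and mock sets each span 8 time points from 0.5 to 12 h. Another 2 LPS libraries of mixed times were made with harringtonine (1 ug/mL for 5 min) or lactimidomycin (50 ug/mL for 30 min), drugs that leave ribosomes standing at starts. The list was made for all libraries together and holds no value per library, so the depth is unknown, no condition was compared and no value below has a replicate. Its only measured value is the authors' score of each ORF, a whole number from 500 to 991 here, taken here as a rating of the evidence that the ORF was translated. Of the dendritic cell markers Itgax, H2-Ab1, Cd74, Zbtb46, Ccr7, Cd86 and Flt3, all but Flt3 had a listed ORF, as did 4 of 4 macrophage markers, 4 of 4 neutrophil markers, 2 of 3 mast cell and basophil markers and 1 of 3 lymphocyte markers. The part of these other cells in the list was not tested.

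A ribosome usually scans from the cap of an mRNA and begins at an AUG in a favourable context. It can pass a weak start and begin at a later one, and it can begin at CUG, GUG or UUG, codons that differ from AUG in their first base, usually with lower efficiency. Inner starts in the same frame give proteins without their first residues, where signal peptides, mitochondrial targeting sequences and lipid attachment sites often lie. As the main ORF is here the longest, the inner start can be the usual start of the gene, with the main ORF as its N-terminal extension. Which of both starts a reference protein uses was not analysed here.

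The sequences of some pairs of starts show what kind of codon the list holds. They were read from RefSeq windows around gene starts (GRCm38.p6), because no genome of the build of the list, mm9, was used here. A window was taken by gene name, and a start was found in it by its distance from the first base of the listed transcript. The window was accepted where the distance from its gene start to the RefSeq gene end equalled the span of the listed transcript, or, failing that, where 1 of both starts read ATG. The window reaches 50 bases past the gene start, so only short leaders could be read. The placement was checked on main ORFs of all families: in 341 length-matched windows the main start read ATG in 316 (92.7%), CTG in 12, GTG in 9, TTG in 3 and another codon in 1. At the 12 other placements within 6 bases, ATG was found in at most 3 of the 341. In the 417 windows with no length match the main start read ATG in 152 (36.5%), and at most 12 did so at another placement, so pairs placed by distance are less certain. Both starts lay within reach for 35 inner starts, of which 21 in 19 families could be read, 10 by length and 11 by distance. The lines show 14 of these pairs, from 6 bases before the main start to the base after the inner start, with both start codons in capitals:
Abt1 (chr13:23423829-23423862, minus strand): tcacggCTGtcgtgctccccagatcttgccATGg
Abt1 (chr13:23423826-23423862, minus strand): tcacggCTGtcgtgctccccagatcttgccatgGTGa
Acyp2 (chr11:30649349-30649385, minus strand): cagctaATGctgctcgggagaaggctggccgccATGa
Ccdc167 (chr17:29716972-29717017, minus strand): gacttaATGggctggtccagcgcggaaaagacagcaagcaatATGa
Coil (chr11:88973943-88973961, plus strand): tcgagcATGagcaagATGg
Commd1 (chr11:22982240-22982261, minus strand): ttagccATGgcgggcgatCTGg
Depdc5 (chr5:32863755-32863767, plus strand): tcggtgGTGCTGt
Gcc2 (chr10:58255521-58255569, plus strand): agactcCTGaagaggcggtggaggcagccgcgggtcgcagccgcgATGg
Hadha (chr5:30154942-30154954, minus strand): ctcaagATGGTGg
Map1s (chr8:70905998-70906019, plus strand): gcgaagATGgcggcagtgATGg
Mmab (chr5:114443982-114443997, minus strand): gtgcgcATGgctGTGt
Mrps18c (chr5:100798764-100798782, plus strand): agaaccATGgccgctCTGg
Praf2 (chrX:7728578-7728596, plus strand): cgcaggATGtcggagGTGc
Psmb9 (chr17:34187303-34187315, minus strand): gctgagATGCTGc

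The 10 pairs matched by length were accepted without regard to either codon, and all 10 had ATG, CTG, GTG or TTG at both starts. The main start was ATG in 7 of them and the inner start in 4. Both were ATG in 3, as in Coil, the gene of the Cajal body protein coilin, where the starts are 3 codons apart. In 4 an ATG was followed by an inner CTG or GTG, as in Commd1, a regulator of NF-kB and copper handling. In the other 3 the main start was CTG or GTG, and in Abt1 an ATG followed as an inner start. The 11 pairs placed by distance, among them Ccdc167, Gcc2, Hadha and Psmb9, were kept because at least 1 of their starts read ATG, and 14 inner starts with no length match and no ATG were dropped, so no share of ATG is given over all 21. No stop codon in the frame lay between the starts of any pair, and an ATG codon lay between them in 2 pairs.

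The scores of these pairs did not simply follow the codon. Abt1, a nuclear activator of basal transcription, had a CTG main ORF of 277 amino acids with a score of 532. Its inner ATG 8 codons on scored 813, and the GTG right after that ATG scored 789. In Coil, the outer ATG scored 571 and the inner ATG 848. In Map1s, which encodes a microtubule-associated protein, the order was turned, with 937 for the main ATG and 631 for the ATG 4 codons further in. Among pairs placed by distance, Hadha, a subunit of the mitochondrial trifunctional protein of fatty acid oxidation, had an ATG with a score of 512 next to a GTG with a score of 960. Psmb9, an inducible subunit of the immunoproteasome, likewise had an ATG with 643 next to a CTG with 951. The main ATG had the higher score in other pairs placed by distance, such as Selrc1 (980 and 686) and Ndufa10 (962 and 555). Over all 21 pairs read, the inner start had the higher score in 2 of 8 with ATG at both starts. It did so in 4 of 9 with an ATG before another codon and in 3 of 4 whose main start was not ATG. Among the 10 length-matched pairs, the inner start had the higher score in 1 of 3 with ATG at both starts and in 1 of 4 with an ATG before another codon. It did so in 2 of 3 whose main start was not ATG. Both of these, counted in the 3 of 4 too, belong to the same Abt1 main ORF.

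The start codon of the main ORF itself could be read in 45 families with an inner start and in 296 without, all by length-matched windows. It was not ATG in 14 of the 45 (31.1%, exact Clopper-Pearson interval at the 95% level 18.2 to 46.6), against 11 of the 296 (3.72%, interval 1.87 to 6.55). Over all families read, the share was 7.33%. Families with a start deeper than 30 codons only had 5 of 25 (20.0%, interval 6.83 to 40.7), an interval that overlaps the former. The score of the main ORF moved with this result. Among main ORFs that scored 500 to 799, the share was 12 of 25 (48.0%, interval 27.8 to 68.7) with an inner start and 6 of 39 (15.4%, interval 5.86 to 30.5) without. Among those at 800 or more it was 2 of 20 (10.0%) and 5 of 257 (1.95%). The intervals overlap within each band. With the highest-scoring ORF of a family as its main ORF the shares were 18.5% (interval 6.30 to 38.1) and 3.31% (interval 1.60 to 6.01), and with ORFs scoring at least 700 alone 14.3% (interval 1.78 to 42.8) and 3.65% (interval 1.84 to 6.44), where the intervals overlap. Where the main start was ATG, a purine, known to favour initiation, stood 3 bases before it in 26 of 31 families with an inner start (83.9%, interval 66.3 to 94.5) and in 266 of 285 without (93.3%, interval 89.8 to 95.9). Only leaders of at least 6 bases that ended inside the window could be read, and intervals cover counting error only. As the longest ORF is the main ORF, a listed extension from another codon becomes the main ORF and a listed ATG behind it an inner start. The rule itself can thus raise the share in families with an inner start, and how much it did so was not tested.

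**Figure D1:**
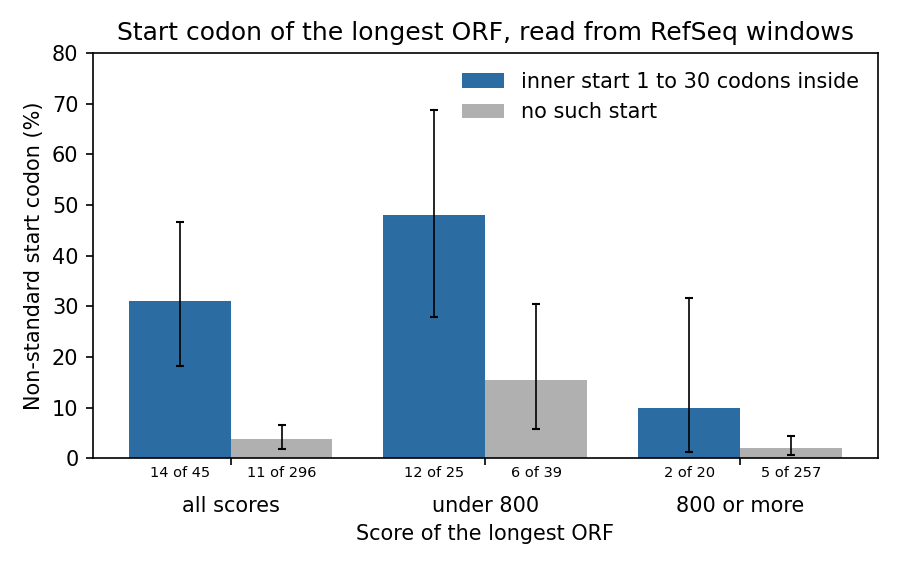
Share of main ORFs whose start codon is not ATG (vertical axis, percent), for families with an inner start (blue) and without (grey), over all scores and in 2 bands of the score of the main ORF. Bars are shares of the windows read, with the counts beneath and exact 95% intervals as lines. The share is 31.1% against 3.72% over all scores, and the intervals overlap within each band. With the highest-scoring ORF as main it is 18.5% against 3.31%. Taking the longest ORF as main can itself raise the share in blue, since listed extensions from other codons become main ORFs.

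The 14 main starts that were not ATG are shown because they are the clearest cases in which the longest ORF begins at another codon and a listed start follows inside it. They are printed from 6 bases before the start codon, in capitals, to 4 bases after it, except Abt1 and Depdc5, whose pairs are given above:
Bcl3 (chr7:19822713-19822725, minus strand): cttcccGTGccga
Crnkl1 (chr2:145934655-145934667, minus strand): ttcgaaGTGcttt
Fkbp7 (chr2:76673062-76673074, minus strand): atcagcCTGctga
Gm10778 (chr10:81649086-81649098, plus strand): tctagtGTGtccc
Lancl1 (chr1:67038797-67038809, minus strand): atctccGTGtgct
Mblac2 (chr13:81711430-81711442, plus strand): ccggctCTGcagc
Nfxl1 (chr5:72559631-72559643, minus strand): ttttcgGTGcggt
Rgs16 (chr1:153740379-153740391, plus strand): cgcagcCTGgtac
Rnf187 (chr11:58938868-58938880, minus strand): cgtaggCTGaggc
Sdf2l1 (chr16:17132361-17132373, minus strand): tggccgCTGttga
Slc17a5 (chr9:78588003-78588015, minus strand): gctaggTTGgcca
Zfp433 (chr10:81704859-81704871, plus strand): ggagctGTGagga

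GTG was the main start in 7 of the 14, CTG in 6 and TTG in 1. The best inner start outscored the main ORF in 8 of them, and in 11 of the 31 families read whose main start was ATG. Over all 1454 families with an inner start, such a start scored above the main ORF and any deeper start in 680 (46.8%). In Bcl3, an IkB family protein that modulates NF-kB, the GTG main ORF of 462 amino acids scored 613 and the inner start 14 codons on, giving 448 amino acids, scored 871. In Rgs16, a regulator of G protein signalling, the CTG main ORF of 229 amino acids scored 545, and the start 28 codons inside scored 931. In Lancl1, a glutathione-binding protein, the values were 513 and 842, and in Mblac2 500 and 833. The reverse was listed for Crnkl1, a splicing factor, whose GTG main ORF scored 963 against 539 for the inner start. These inner starts lay beyond the windows, so their codons were not read. Zfp433 and Gm10778 are zinc finger genes with near-identical listed copies on the same chromosome, so the values of each copy are uncertain.

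Inner starts were densest near the main start. Their median distance was 11 codons, with quartiles of 6 and 18. Of the 1635 distinct starts, 771 (47.2%) lay 1 to 10 codons inside, 553 (33.8%) 11 to 20 and 311 (19.0%) 21 to 30. The decline went on past the limit of the rule, with 223 distinct starts at 31 to 40 codons, 129 at 41 to 50 and 49 at 91 to 100. At the limit, the 22 starts 30 codons inside had a median score of 686.5 (range 514 to 990), and the 20 starts 31 codons inside one of 627 (range 515 to 987). The N-terminal stretch before an inner start was a median of 2.60% of the main ORF.

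**Figure D2:**
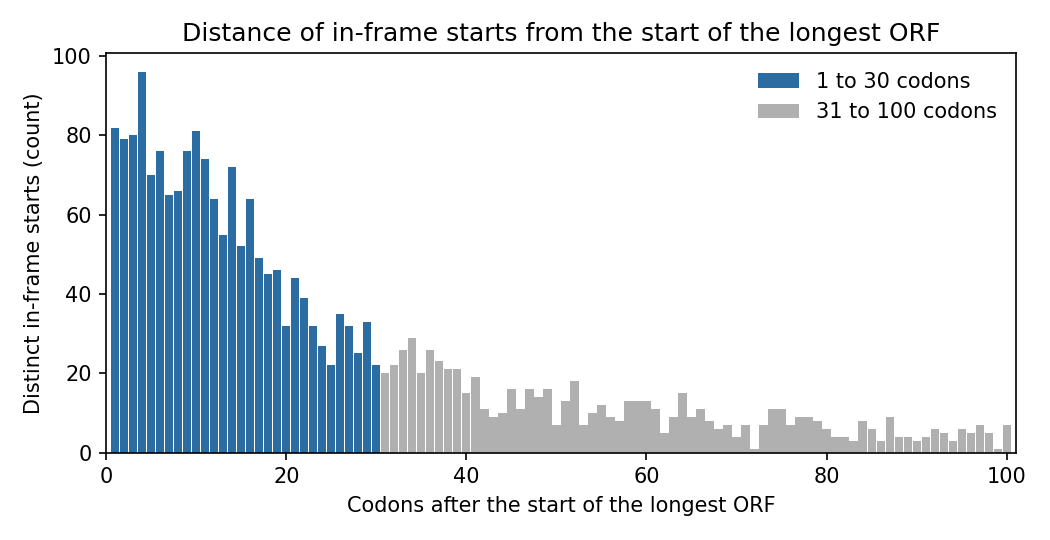
Number of distinct in-frame starts (vertical axis) at each distance from the start of the longest ORF in codons (horizontal axis), for inner starts within 30 codons (blue) and for deeper starts up to 100 codons (grey). Counts fall from 771 in the first 10 codons to 311 at 21 to 30 and 49 at 91 to 100.

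In 82 cases (5.02%) the inner start was the codon directly after the main start. Both codons then differ by 3 bases in the transcript. In Rab31, a GTPase of endosomal traffic, the main start lay at chromosome 17, 66121884, and the inner start at 66121881 (mm9, minus strand, counted from 1), and their ORFs of 195 and 194 amino acids scored 576 and 912. In Cd40, the costimulatory receptor, the main ORF of 289 amino acids scored 985, and the start 1 codon in scored 764 and was listed on 2 splice variants, the better of 259 residues. Itgb2, the beta chain of leukocyte integrins, had 944 and 670 for its pair. The inner start had the higher score in 34 of the 82 adjacent pairs (41.5%, interval 30.7 to 52.9).

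An intron separated the starts in 366 of the 1635 cases (22.4%). This held for 11.7% of starts within 10 codons, 27.3% at 11 to 20 codons and 40.2% at 21 to 30. In Rala, a Ras-like GTPase, 46914 intron bases lay between starts that were 14 codons apart on the transcript, with scores of 516 and 970. Of the 1814 ORFs, 1361 (75.0%) were listed on exactly the exon blocks of their main ORF, against 69.2% of starts deeper than 30 codons. From the inner start on, 1642 (90.5%) used the same codons as the main ORF, and the others also differed by splicing.

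Most families had a single inner start. That was so in 1286 of 1454 (88.4%), while 155 had 2 and 13 had 3. A deeper start was listed too in 238 of these families (16.4%, interval 14.5 to 18.4), against 8.86% of the families without an inner start (interval 8.28 to 9.46). Abt1 had 3 inner starts, 8, 9 and 22 codons inside, all with scores (813, 789 and 753) above the main ORF. Baz1b, a subunit of chromatin remodelling complexes, had them 3, 11 and 12 codons inside its 1479 residues, and of these only the closest, at 772, scored above the main ORF at 651. Gak, a kinase that uncoats clathrin vesicles, had 3 within 7 codons, at 566, 642 and 549, all below its main ORF at 871. In Cnih4, a factor of receptor export from the endoplasmic reticulum, starts 3 and 4 codons inside scored 749 and 933 around the main score of 828, and a start past an intron, 26 codons inside, scored 725.

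The scores of inner starts were close to those of their own main ORFs as a group, and far apart within single genes. Of the 1635 distinct inner starts, 769 (47.0%, interval 44.6 to 49.5) scored above their main ORF, 860 below and 6 the same. Among all 11949 ORFs of the list that are not main ORFs the share above was 27.3%, and among the 1241 distinct starts deeper than 30 codons it was 35.5%. The median difference, inner start less main ORF, was -18 points with quartiles of -218.5 and 184, and -99 points for deeper starts. Of the inner starts, 385 (23.5%) were more than 200 points above and 445 (27.2%) more than 200 points below. Of the main ORF, inner starts and deeper starts of a family, the main ORF scored highest in 720 families. An inner start did so in 680 and a deeper start in 51, and 3 were tied. Splice variants that keep the main start and stop were not compared. An inner start was thus taken at its best variant, and the main start at its longest ORF only. Among the 1361 inner ORFs on the exon blocks of the main ORF, 46.8% scored above it. ORFs at the same stop overlap along most of their length, so these values are not independent, and no test across ORFs was made.

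Main ORFs with an inner start had lower scores than others. Their median was 736.5 (quartiles 600 and 878), against 926 for all main ORFs, 790 in families with deeper starts only and 944 in families with neither. The higher of the main score and the best inner score had a median of 866. An inner start was listed for 46.6% of families whose main ORF scored 500 to 599 (interval 43.0 to 50.2), 33.7% at 600 to 699, 23.3% at 700 to 799, 14.7% at 800 to 899 and 5.11% at 900 or more (interval 4.57 to 5.71). Deeper starts fell along the same bands from 28.5% to 4.05%. The median score of inner starts went the other way, from 815 where the main ORF scored 500 to 599 to 624 where it scored 900 or more. Only 16 families had both a main ORF and an inner start at 900 or more, while 286 had only the main ORF and 271 only an inner start there. Spearman's rho between both scores was -0.33 over 1635 pairs, as a description: each pair overlaps in the transcript, and values under 500 are not in the list.

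**Figure D3:**
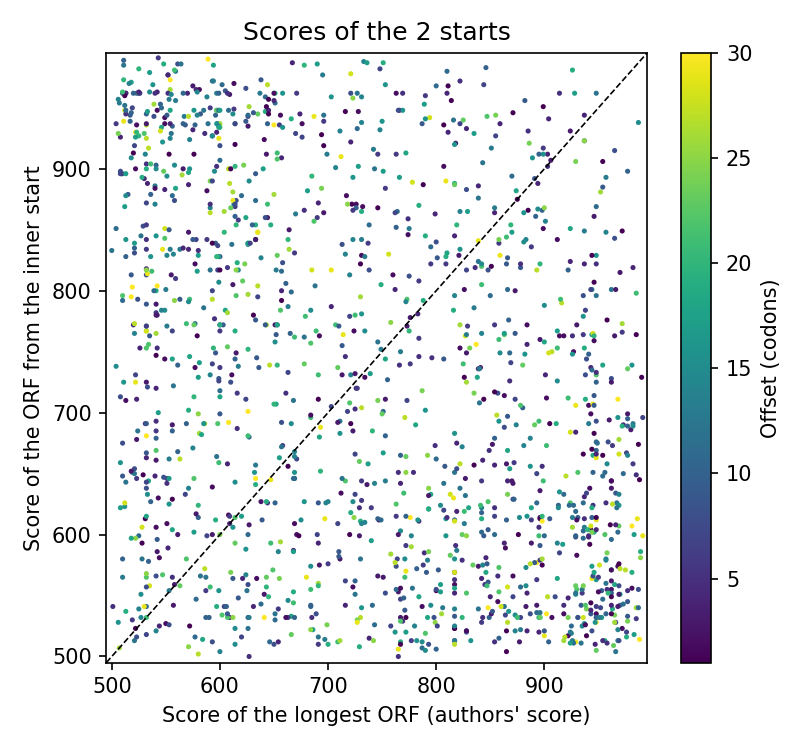
Score of the ORF from the inner start (vertical axis) against the score of the longest ORF of its family (horizontal axis), 1 point per distinct inner start, coloured by distance in codons; the dashed line marks equal scores. Points gather at the upper left and lower right, and few pairs are at 900 or more on both axes.

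**Figure D4:**
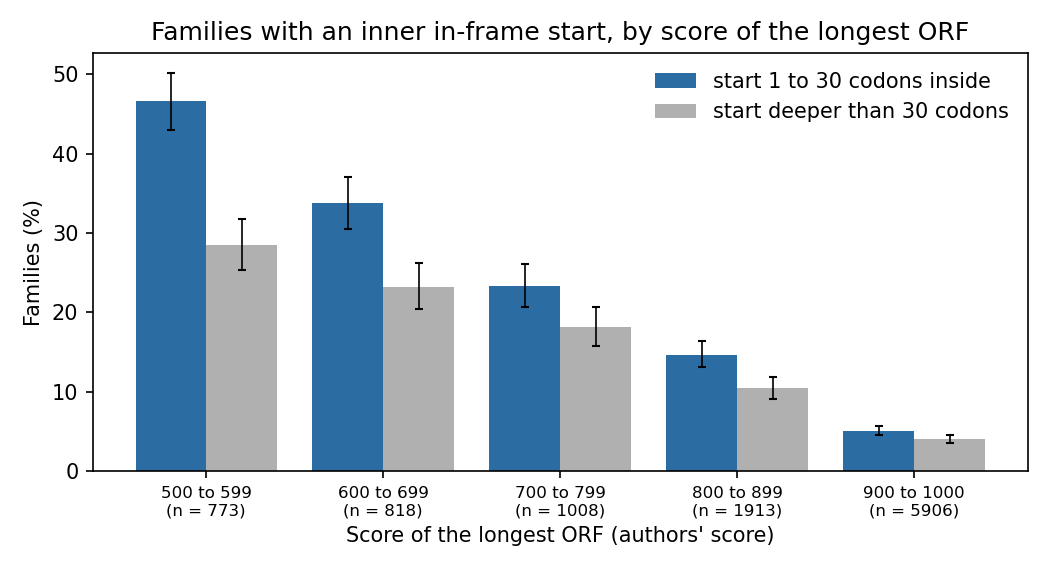
Share of families with an inner start (blue) or a deeper in-frame start (grey), in percent on the vertical axis, by the score of the longest ORF. Lines are exact 95% intervals and n is the number of families. The blue share falls from 46.6% to 5.11%.

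The leader, the transcript stretch before the main start, differed little. It had a median of 161 bases in families with an inner start, 190 in families without and 156.5 in families with deeper starts only. The share of families with an inner start was 13.8% for leaders under 20 bases, 15.3% at 20 to 49, 16.9% at 50 to 99 (interval 15.1 to 18.8), 14.6% at 100 to 199, 13.2% at 200 to 399 and 11.5% at 400 or more (interval 10.2 to 12.9). The median main score was also the lowest in the last of these bins, at 893 against 924.5 to 938 in the others. An ORF that ended before the main start was listed in 12.7% of families with an inner start (interval 11.1 to 14.5) and in 16.9% of the others (interval 16.1 to 17.7).

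The highest-scoring inner starts belonged to genes of many kinds. Cox17, a copper chaperone of cytochrome c oxidase, had an inner start 6 codons in at 991, giving 63 residues, against 543 for its 69-residue main ORF at chromosome 16, 38347169 to 38349411 (mm9). Tnip3, an inhibitor of NF-kB activation, had a start 30 codons in at 990, against 589. Its inner ORF also differed by splicing, with 175 residues against 238. Sypl, a synaptophysin-like vesicle protein, had the largest rise from the main ORF, from 511 to 989 at 10 codons, on chromosome 12 from 33639126 to 33639156. Elavl1, which stabilises AU-rich mRNAs, went from 561 to 986 across an intron of 13099 bases. The largest falls were in Sod2, mitochondrial superoxide dismutase, from 988 for 222 residues to 514 for a start 30 codons in, and in Fam210a, from 983 to 518. Zbtb46, a transcription factor that marks classical dendritic cells, went from 976 to 520 at 7 codons.

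Named genes had an inner start in 1430 of 10182 cases (14.0%, interval 13.4 to 14.7), and of these 1416 are protein coding. Gene groups are given beside this share without a test. Counts of inner starts above the main ORF in a group stand beside 47.0% of all 1635 distinct inner starts. Myeloid and AP-1 transcription factors had an inner start in 14 of 52 cases (26.9%, with a lower bound of 15.6). On identical exon blocks the share was 21.2% (interval 11.1 to 34.7) against 11.7% of all families, and with the highest-scoring ORF as main 13.5% (interval 5.59 to 25.8) against 7.81%, so that both intervals hold the share of all families. Their 18 inner starts had a median score of 746, and 7 scored above their main ORF. Atf3, a stress-induced repressor of inflammatory genes, had starts 6 and 16 codons inside, at 884 and 969, against 753 for the 197-residue main ORF, and 5618 intron bases lay before the inner of these. Fosl2, an AP-1 subunit, had 545 for 336 residues and 953 for 326 residues. Cebpd, a partner of C/EBP beta in the LPS response, had 593 and, 7 codons in, 890. Sfpi1, the gene of the myeloid master regulator PU.1, kept the higher score at its 280-residue main ORF, 965, with 763 at 3 codons and 915 at 8. Junb, at 884 and 552, and Elf4, at 934 and 542, had weak inner starts, and Egr2 had 885 and 866 at adjacent codons.

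Genes with alternative in-frame starts described in the literature had an inner start in 11 of 45 cases (24.4%, interval 12.9 to 39.5), of which some also belong to the former group. Of their 14 inner starts, 4 scored above the main ORF, beside 47.0% of all inner starts. In Cebpb, a transcription factor made as long activator and short inhibitor forms, starts 4 and 21 codons inside the 296-residue main ORF at chromosome 2, 167514522 to 167515412, gave 292 and 275 residues. Their scores were 548 and 712, against 922. Myc, for which a longer form from a non-AUG start is known, had 838 and, 18 codons in, 729. Trp53, the tumour suppressor p53, had 948 for 398 residues and 693 and 676 for 390 and 387. Hif1a, the hypoxia regulator, showed the opposite order, with 511 for 836 residues and 985 for the start 12 codons in. That start was shared by 3 splice variants, the best of 810 residues, so that splicing differed too. Bcl2l1, an inhibitor of apoptosis, had 937 and 849, and Mdm2, the ubiquitin ligase of p53, 948 and 822.

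Toll-like receptor and NF-kB signalling genes had an inner start in 11 of 56 cases (19.6%, interval 10.2 to 32.4). Of their 12 inner starts, 3 scored above the main ORF, beside 47.0% of all inner starts. Among receptors, Tlr8, an endosomal RNA sensor, had 946 for its 1032 residues and 861 for a start 3 codons in, across 17899 intron bases, and Tlr13, a sensor of bacterial ribosomal RNA, had 896 and 532. Among adaptors, Myd88 had starts 11 and 27 codons inside its 307 residues, at 626 and 817 against 893, and Ticam2, which couples Toll-like receptor 4 to TRIF, had 809 and 828. Among kinases and scaffolds, Tbk1, which activates IRF3, had 966 and 528, Chuk, the IKK alpha subunit, 837 and 756, and Bcl10, a scaffold with Malt1, 973 and 543. Among effectors, the NF-kB subunit Rel had 962 and 801 and the inhibitor Nfkbie 954 and 648. Bcl3 and Tnip3, described above, had the higher score at the inner start by 258 and 401 points.

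Interferon and antiviral genes had an inner start in 8 of 51 cases (15.7%, interval 7.02 to 28.6). Of their 10 inner starts, 6 scored above the main ORF, beside 47.0% of all inner starts. Oasl2, a 2'-5' oligoadenylate synthetase-like protein, went from 533 to 947 at 17 codons, on another splice form. Dhx58, the RIG-I-like helicase LGP2, had 568 for its main ORF and 633 and 936 at 7 and 9 codons. Trim21, a cytosolic antibody receptor, had 721 and 978, with 28 codons between. Bst2, a tether of budding virions, had 902 and 673. In Mx2, an antiviral GTPase, the values were 703 and 705.

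An inner start was listed for 2 of 36 cytokine and chemokine genes (5.56%, interval 0.680 to 18.7, which holds the 14.0% of all named genes). These were Ccl17, a chemokine of dendritic cells, with 977 and 898 at 10 codons, and Il18, with 883 and 541 at 3 codons. Surface and antigen presentation genes had an inner start in 6 of 45 cases (13.3%), which included Ciita, the regulator of MHC class II genes, with 893 for the main ORF and 650 and 577 at 7 and 30 codons. Pdcd1lg2, a ligand of PD-1, went from 591 to 950 at 6 codons. Of macrophage markers 4 of 14 had an inner start, among them the mannose receptor Mrc1 (676 and 926), and of neutrophil markers 4 of 16, among them Elane (729 and 508) and Lcn2 (930 and 583). No mast cell marker of 4 listed and no lymphocyte marker of 1 listed had an inner start.

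Kinases of the MAPK, PI3K and Src types had an inner start in 12 of 54 cases (22.2%, interval 12.0 to 35.6). Beside 47.0% of all inner starts, 4 of these 12 scored above the main ORF. Pim2 went from 608 to 948, Fyn, a Src-type kinase, from 518 to 795, Tec from 664 to 834 and Map2k7 from 801 to 827. The ORF listed under Pim2 has 534 residues and lies at chromosome X, 7419210 to 7451480 (mm9). It was assigned by name only, and whether it encodes the Pim2 kinase was not checked. The inner ORFs of Tec (587 residues against 656, 26 codons in) and Map2k7 (410 against 435, 9 codons in) also differed by splicing. Syk (973 and 650), Jak1 (935 and 555), Jak2 (918 and 542) and Pik3cd (969 and 558) had the higher score at the main start. Rab GTPases, switches of vesicle traffic, had an inner start in 10 of 40 cases (25.0%, interval 12.7 to 41.2). The inner start led by 336 to 405 points in Rab31, Rab32 (532 and 937) and Rab5b (549 and 942), all within 3 codons. It trailed in Rab1 (969 and 551), Rab22a (958 and 555) and Rab14 (936 and 597).

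Cytosolic ribosomal proteins had one in 5 of 81 cases (6.17%, interval 2.03 to 13.8), translation factors in 6 of 61 (9.84%), proteasome genes in 4 of 45 (8.89%), aminoacyl-tRNA synthetases in 2 of 31 (6.45%) and actin cytoskeleton genes in 4 of 50 (8.00%). All but the first of these intervals hold the 14.0% of all named genes, and with main ORFs of at least 100 codons that of the ribosomal proteins (7.04%, interval 2.33 to 15.7) does too. The main ORFs of ribosomal proteins had a median score of 987 against 927 over all named genes. Beside 47.0% of all inner starts, 6 of the 7 in translation factors outscored the main ORF. They were in Eef1d, an exchange factor of elongation (594 and 985), Eif3k (517 and 944), Eif3m (579 and 944), Eif6 and Eif4g1. Eif6, which keeps ribosomal subunits apart, had 513, with 710 and 896, and Eif4g1, the scaffold of the cap-binding complex, 756 and 830. The inner ORFs of Eef1d (257 residues against 299, 18 codons in) and Eif4g1 (1141 against 1581, 28 codons in) also differed by splicing. In ribosomal proteins, Rpl14 had 899 and 951 at adjacent codons with an intron between, and Rps15a (990 and 729) and Rpl30 (988 and 645) had the higher score at the main start. In the cytoskeleton, Flna, an actin crosslinker, had 644 and, 27 codons in, 969, and Gsn, the actin-severing gelsolin, had 617 and inner starts at 858, 738 and 817.

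Among mitochondrial proteins, many of which carry an N-terminal targeting sequence, mitochondrial ribosomal proteins had an inner start in 12 of 76 cases (15.8%, interval 8.43 to 26.0) and oxidative phosphorylation genes in 11 of 92 (12.0%, interval 6.12 to 20.4). Mrps17 went from 554 to 948 at 18 codons, Mrpl3 from 604 to 865 at 26 and Mrpl35 from 882 to 956 at 9. Mrpl1 (968 and 602) and Mrps27 (927 and 511) had the higher score at the main start. Besides Cox17, Cox14, an assembly factor, went from 835 to 929 at 17 codons, and Ndufs7, a subunit of complex I, from 935 to 525 at 14. Solute carriers had an inner start in 28 of 175 cases (16.0%), with 17 of 32 starts above the main ORF, such as the zinc transporter Slc39a7 (518 and 946). Zfp zinc fingers had one in 25 of 205 cases (12.2%), with 11 of 31 above. Of all inner starts, 47.0% were above.

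**Figure D5:**
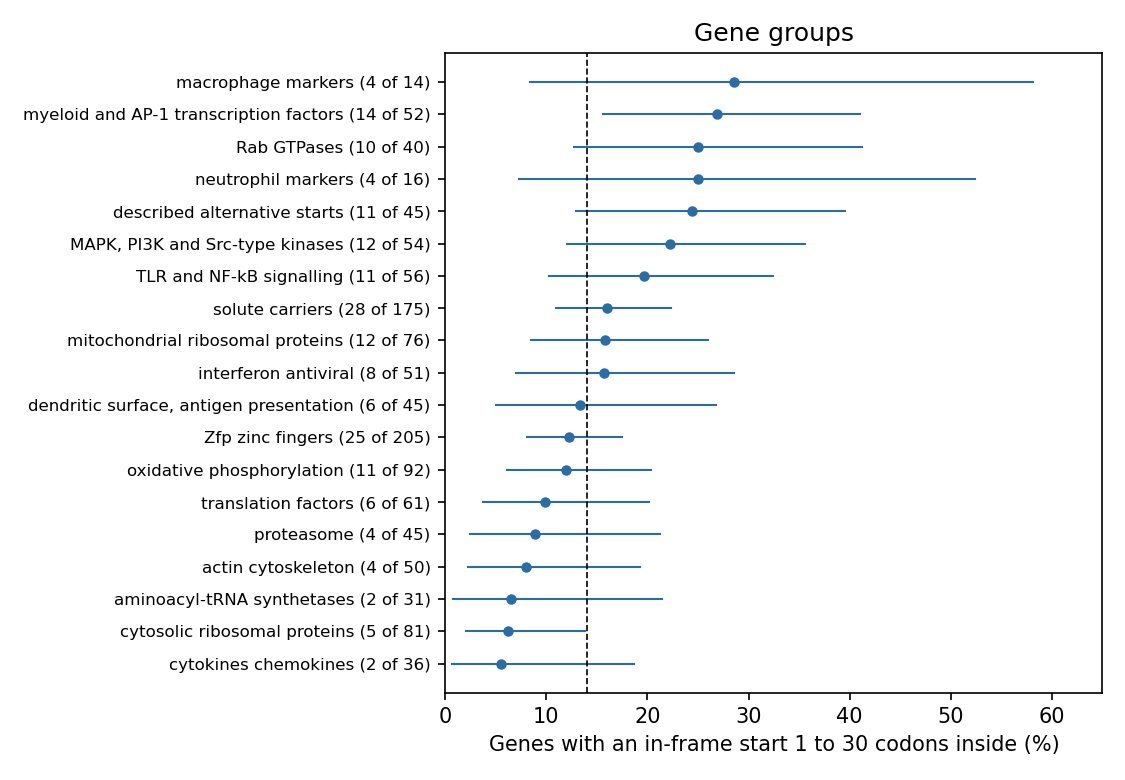
Share of genes with an inner start, in percent on the horizontal axis, for gene groups with 10 or more listed genes. Points are shares, lines exact 95% intervals, counts stand beside the names, and the dashed line is the 14.0% of all named genes; only the intervals of myeloid and AP-1 transcription factors (above) and cytosolic ribosomal proteins (below) leave it out. Neither does so under every other setting: the interval is 11.1 to 34.7 against 11.7% for the former on identical exon blocks, and 2.33 to 15.7 for the latter with main ORFs of at least 100 codons, and no correction was made for the number of groups.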

How the data were processed

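Fragments of ribosome-protected RNA from 37 libraries in 28 groups went into a single deposited ORF list. Per the submitters' processing notes, Bowtie2, TopHat and mm9 were involved, in roles and versions they do not list, while the ORF caller was not given in the sources used here. Each score is the authors' deposited value and was used only to describe, rank or filter ORFs; positions are the authors' mm9 coordinates.

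The length in the name equalled the coding codons without the stop for all 22367 ORFs. A number after the length in 329 names was dropped before families were formed. Family names were matched to RefSeq symbols or older names (10232 of 10418). Python 3.11.15, numpy 2.4.6, scipy 1.17.1 and matplotlib 3.10.9 were used. The placement of starts was tested on simulated data, in which 1988 of 1988 in-frame starts were found at their true distance with 0 false. All ORFs of a simulated family lay on the same exon blocks, so placement across splice variants was not tested.

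No test was made, since the list has no replicates and ORFs of a family are not independent; intervals are exact Clopper-Pearson at 95%. Planned readings of RefSeq protein lengths and residues were not run, as no protein table was used here; start codons were read from RefSeq windows instead. Members, gene lists (21) and the rule for naming were chosen with earlier results of these data known. Named were the 8 highest, the 8 most above and 8 most below their main ORF, the 5 families with most starts, starts 1 codon inside, all starts in the described and NF-kB lists and up to 4 per other list; the text names a part, since some genes are not reported here, and adds other list genes, the start-codon families and pairs chosen after their values were seen. Alternatives were score filters at 700 and 900, the highest-scoring ORF as main, main ORFs of at least 100 codons, identical exon blocks, distinct starts and a window of 40 codons.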

Additional observations from a re-analysis of the deposited data

How the results depend on the processing

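The median leader kept within 1.5 times of 161 bases under every alternative run, and the number of ORFs kept within 1.5 times of 1814 with distinct starts, main ORFs of at least 100 codons, identical exon blocks, a window of 40 codons and, added after seeing the data, without starts 1 codon inside. A score of at least 700 left 456 ORFs, a median score of 822, 4.00% of families with an inner start and 14.3% (interval 1.78 to 42.8) of main starts read that were not ATG. A score of at least 900 left 21 ORFs, a median of 931, 57.1% above the main ORF and 0.280% of families, and no main start could be read in families with an inner start. With the highest-scoring ORF as main, 1004 ORFs, a median of 612 and 7.81% of families were left, the share of main starts that were not ATG was 18.5% (interval 6.30 to 38.1), and 0% scored above the main ORF by construction. Identical exon blocks gave 11.7% of families and a window of 40 codons 15.5%. No paired analysis was possible because the list holds no value per sample. The intended results on RefSeq protein lengths and residues were not run. Among gene groups, the share of myeloid and AP-1 transcription factors went to 13.5% with the highest-scoring ORF as main and to 9.80% at a score of at least 700, against 7.81% and 4.00% of all families. Of the groups' shares, 13 moved at a score of at least 700 and 19 at 900, and 4 with the highest-scoring ORF as main. The interval of myeloid and AP-1 transcription factors held the share of all families at both score limits, with the highest-scoring ORF as main and on identical exon blocks, and that of cytosolic ribosomal proteins in these settings and with main ORFs of at least 100 codons.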
